A study of Canis lupus familiaris with 6 samples.

Results

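Lactate dehydrogenase is not the only way a cell turns cytosolic NADH back into NAD+, and 10 genes of the alternative routes and of NAD supply were followed here in canine tumour cells. The genes were chosen by symbol, with earlier results of these data known. They were GOT1, GOT2, MDH1 and MDH2 of the malate-aspartate shuttle, and GPD1L and GPD2 of the glycerol phosphate shuttle. The others were the transhydrogenase NNT, NAMPT and NMNAT1 of NAD salvage, and the NAD kinase NADK. All 10 symbols had a row in a deposited table of 20500 rows, and MDH2 had a second row that was listed at 0 in 5 of the 6 libraries. The 10 main rows passed a filter of a mean of at least 1 TPM (an abundance scaled for transcript length and to the same total in every library), as did 10874 rows in all.

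The cells were HU-HSA-2, a single line established from hemangiosarcoma, a cancer of the blood vessel wall in dogs, grown in DMEM with fetal bovine serum and antibiotics. 3 libraries came from control cells and 3 from cells exposed to (R)-GNE-140, a small molecule that blocks the LDHA and LDHB enzymes. The labels' protocols give DMSO or the compound as the exposure, for 72 hours, and name no dose. The comparison asks which transcripts differ when lactate dehydrogenase is inhibited. Nothing in the labels ties the replicates to separate cultures, so every p-value rests on a spread between libraries that may be technical.

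The inner mitochondrial membrane does not let NADH through, so cells move its electrons with shuttles. In the malate-aspartate shuttle, cytosolic MDH1 uses NADH to make malate, mitochondrial MDH2 oxidises the malate to regenerate NADH inside, and the aspartate aminotransferases GOT1 and GOT2 return the carbon as aspartate. In the glycerol phosphate shuttle, a cytosolic dehydrogenase (GPD1 or its relative GPD1L) makes glycerol 3-phosphate from NADH, and GPD2 on the inner mitochondrial membrane passes those electrons to ubiquinone. NAMPT makes nicotinamide mononucleotide from nicotinamide, the nuclear enzyme NMNAT1 turns that into NAD, NADK phosphorylates NAD to NADP, and NNT uses the mitochondrial proton gradient to make NADPH from NADH.

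After (R)-GNE-140, 0 of the 10 genes passed an adjusted p of 0.05 (limma on log2(TPM + 1), Benjamini-Hochberg over all tested rows), where 3.03% of all tested rows did. An unadjusted limma p under 0.05 was found for 3, all with lower values (GPD1L, GPD2 and GOT1). Among tested rows 17.9% had such a p in either direction and 9.16% with lower values. In GOT1, GPD1L, GPD2 and NNT the 3 treated values lay below the 3 control values, 4 of 10 genes against 11.8% of tested rows, or 23.1% in either direction. No gene of the 10 had all treated values above the controls, against 11.2% of tested rows. The 10 differences ran from -0.27 to 0.17 on the log2(TPM + 1) scale, with a median of 0.00900, and the median over all tested rows was 0.00403. Their median absolute difference was 0.0902, against 0.0866 over all tested rows. As these are bulk samples, fewer cells of a kind and less RNA per cell cannot be told apart.

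**Figure D1:**
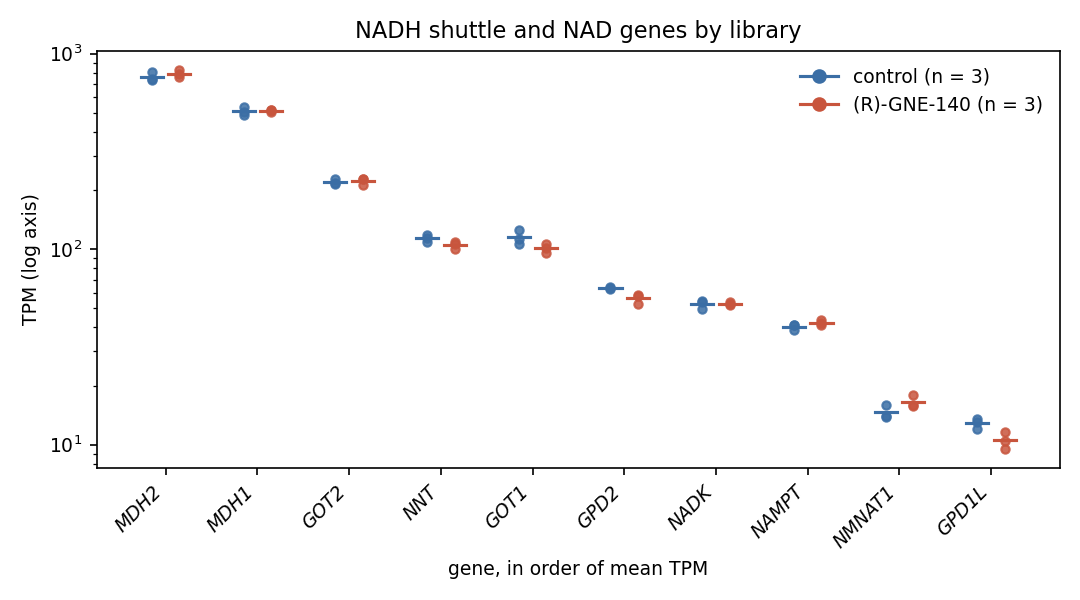
TPM on a log axis for each of the 10 genes, in order of mean level, with 1 point per library and a line at the group mean (3 control and 3 (R)-GNE-140 libraries). Levels run from 776 TPM for MDH2 to 11.7 TPM for GPD1L, and the steps between most genes are larger than the distance between the groups.

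The order of levels, on the length-scaled TPM and over all 6 libraries, separated most of the genes. MDH2 was highest with a mean of 776 TPM, followed by MDH1 at 510 TPM and GOT2 at 222 TPM, and the 6-library ranges of these 3 genes did not overlap. Both malate dehydrogenases together made up 66.0% to 69.1% of the summed TPM of the 10 genes in a library. NNT (109 TPM) and GOT1 (108 TPM) came next and could not be ordered, since their ranges overlapped in both groups. GPD2 (59.7 TPM) and NADK (52.6 TPM) overlapped in the treated libraries but not in the controls. NAMPT at 41.2 TPM, NMNAT1 at 15.6 TPM and GPD1L at 11.7 TPM closed the order, each apart from its neighbours. By mean level MDH2 stood at rank 173 and GPD1L at rank 7203 of the 10874 tested rows.

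GOT1 (ENSCAFG00845030772), the cytosolic aspartate aminotransferase, had the lower values after treatment among the 4 malate-aspartate enzymes. It was at 113.20, 106.04 and 125.61 TPM in control replicates 1, 2 and 3 and at 105.86, 95.94 and 100.99 TPM in the treated replicates. Every treated library lay below every control, but the gap between the highest treated value and the lowest control value was small beside the spread of the controls. The means were 115 ± 9.90 and 101 ± 4.96 TPM (SD, n = 3 each), a log2 difference of -0.18 with an SE of 0.07 that did not pass (limma adjusted p = 0.193). The 95% interval of -0.337 to -0.0298 corresponds to a fold of 0.791 to 0.980.

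GOT2 (ENSCAFG00845001418), the mitochondrial aminotransferase, held 218.09, 215.88 and 228.32 TPM in control replicates 1 to 3 against 227.62, 213.00 and 228.56 TPM in treated replicates 1 to 3. The groups overlapped across nearly their whole range. The log2 difference was 0.01 (95% interval -0.0926 to 0.122, limma adjusted p = 0.915).

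The malate dehydrogenases were the most abundant of the set. MDH1 (ENSCAFG00845019026), the cytosolic enzyme that consumes NADH, held 487.15, 506.00 and 531.61 TPM in control replicates 1 to 3 against 505.55, 515.38 and 515.94 TPM in treated replicates 1 to 3, so the treated values lay inside the control range. Its log2 difference was 0.01 (95% interval -0.0874 to 0.112, limma adjusted p = 0.924), or a fold of 0.941 to 1.08. The main row of MDH2, the mitochondrial enzyme of the shuttle and of the TCA cycle, held 739.40, 735.24 and 805.59 TPM in control replicates 1 to 3 against 828.75, 783.97 and 761.31 TPM in treated replicates 1 to 3. The groups overlapped, and the log2 difference was 0.06 (95% interval -0.0570 to 0.174, limma adjusted p = 0.616). MDH2 carries 2 identifiers in the table's own list, so none is given for this row.

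Both genes of the glycerol phosphate shuttle among the 10 had lower values in every treated library than in any control, and neither passed. The groups overlapped for GPD1, which is described below. GPD1L (ENSCAFG00845022052), the GPD1-like dehydrogenase of the cytosolic step, held 13.54, 13.05 and 12.08 TPM in control replicates 1 to 3 against 11.63, 9.55 and 10.45 TPM in treated replicates 1 to 3. Its means of 12.9 ± 0.743 and 10.5 ± 1.04 TPM (SD, n = 3 each) gave the largest difference of the 10 genes, -0.27 on the log2 scale with an SE of 0.09, and it did not pass (limma adjusted p = 0.149). The 95% interval was -0.472 to -0.0674, and 89.1% of tested rows had an absolute difference no larger than that of GPD1L.

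GPD2 (ENSCAFG00845025352), the mitochondrial enzyme that feeds ubiquinone, was at 63.50, 62.42 and 63.82 TPM in the controls, the tightest control values of the set with a coefficient of variation of 1.16%. In the treated libraries it was at 57.74, 52.22 and 58.31 TPM, all below the controls and more spread. The means were 63.2 ± 0.734 and 56.1 ± 3.36 TPM (SD, n = 3 each), a log2 difference of -0.17 with an SE of 0.06 (limma adjusted p = 0.151). Its 95% interval of -0.302 to -0.0424 corresponds to a fold of 0.811 to 0.971.

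NNT (ENSCAFG00845001372), the proton-driven transhydrogenase, was the fourth gene whose groups did not overlap. It held 114.11, 109.34 and 118.28 TPM in control replicates 1 to 3 against 106.81, 99.93 and 108.46 TPM in treated replicates 1 to 3, where the highest treated value was close to the lowest control. The log2 difference was -0.12 (95% interval -0.235 to 0.00400, limma adjusted p = 0.295). For GOT1, GPD1L, GPD2 and NNT an exact 2-sided permutation test of the difference of means gave p = 0.1, the smallest that 3 against 3 libraries allow. In each of these 4 genes (R)-GNE-140 replicate 2 was the lowest of all 6 libraries. That library held the lowest treated value in 7 of the 10 genes and lay at a median of -0.0520 log2 from its group mean over the 10 genes and -0.0479 over all tested rows. Without it the log2 differences were -0.148 for GOT1, -0.207 for GPD1L, -0.122 for GPD2 and -0.0803 for NNT.

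**Figure D2:**
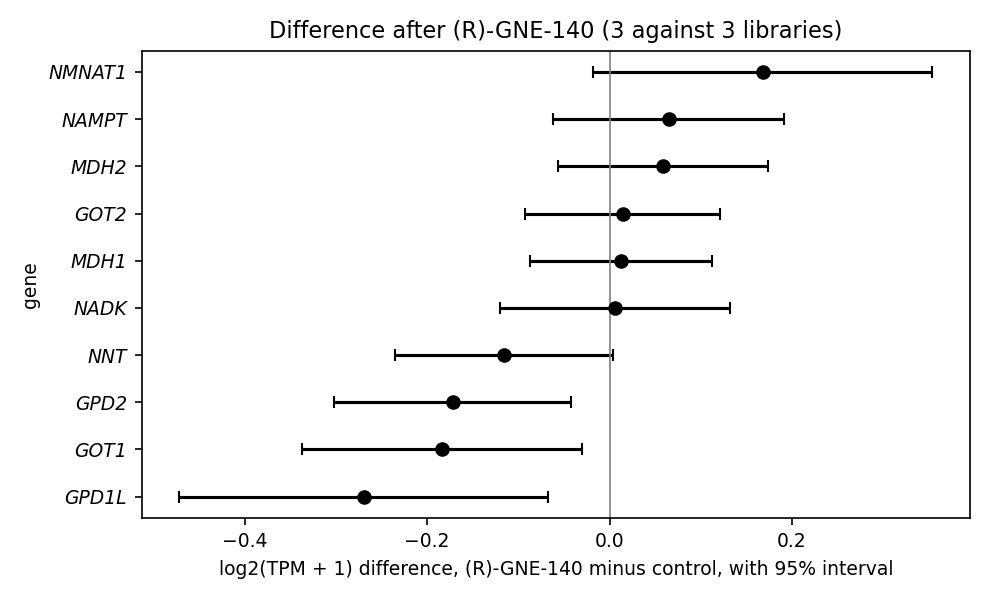
Difference of mean log2(TPM + 1), (R)-GNE-140 minus control, for each of the 10 genes with its 95% interval from limma (3 against 3 libraries). The intervals of GPD1L, GOT1 and GPD2 lie below 0 and those of the other 7 genes include 0, and no gene passed after adjustment over 10874 rows.

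The salvage and phosphorylation genes did not pass in either direction. NAMPT (ENSCAFG00845026934), the rate-limiting enzyme of NAD salvage, held 40.90, 38.53 and 41.21 TPM in control replicates 1 to 3 against 43.31, 40.95 and 42.03 TPM in treated replicates 1 to 3. The groups overlapped, and the log2 difference of 0.06 had a 95% interval of -0.0616 to 0.191 (limma adjusted p = 0.612), a fold of 0.958 to 1.14. NMNAT1 (ENSCAFG00845000417), which makes NAD in the nucleus, held 15.98, 14.01 and 13.92 TPM in control replicates 1 to 3 against 15.99, 17.86 and 15.83 TPM in treated replicates 1 to 3. Control replicate 1 lay among the treated values and the other controls lay below them. NMNAT1 had the highest positive difference of the 10, 0.17 on the log2 scale (95% interval -0.0177 to 0.354, limma adjusted p = 0.330).

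NADK (ENSCAFG00845015607), the cytosolic NAD kinase, held 53.75, 49.51 and 54.30 TPM in control replicates 1 to 3 against 53.87, 51.94 and 52.28 TPM in treated replicates 1 to 3. The treated values lay inside the control range. The log2 difference was 0.01 (95% interval -0.121 to 0.132, limma adjusted p = 0.970).

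**Figure D3:**
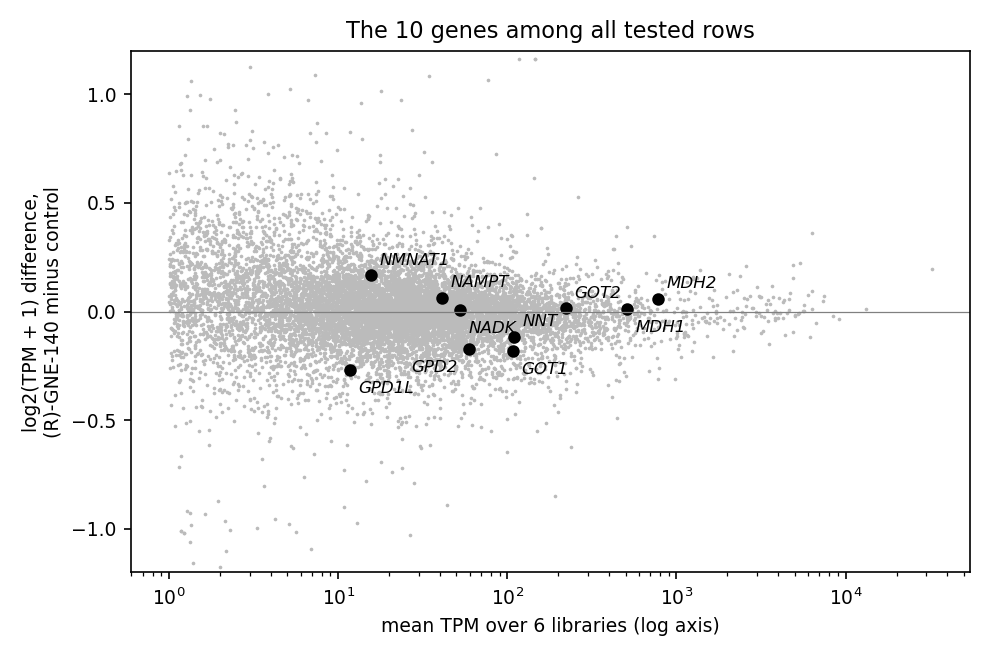
Mean TPM over the 6 libraries (log axis) against the log2(TPM + 1) difference, (R)-GNE-140 minus control, for 10874 tested rows in grey and the 10 genes in black; 32 rows lie outside the plotted range. The 10 genes lie within the cloud of rows of similar level, with GPD1L lowest at -0.27 and NMNAT1 highest at 0.17.

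Since TPM is scaled for length, cytosolic and mitochondrial partners were set side by side within each library. The ratio of GOT1 to GOT2 was 0.519, 0.491 and 0.550 in the controls and 0.465, 0.450 and 0.442 after treatment, so the treated ratios were all below the controls. The log2 ratio differed by -0.20 (exact 2-sided permutation p = 0.1, adjusted over 3 ratios 0.3). The ratio of MDH1 to MDH2 was 0.659, 0.688 and 0.660 in the controls and 0.610, 0.657 and 0.678 after treatment, and the groups overlapped (log2 difference -0.05, exact p = 0.4, adjusted 0.4). That difference ran from -0.0789 without treated replicate 3 to -0.00297 without treated replicate 1. The ratio of GPD1L to GPD2 was 0.213, 0.209 and 0.189 in the controls and 0.201, 0.183 and 0.179 after treatment, again with overlap (log2 difference -0.12, exact p = 0.2, adjusted 0.3). With a smallest possible p of 0.1 none of these tests could pass 0.05.

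**Figure D4:**
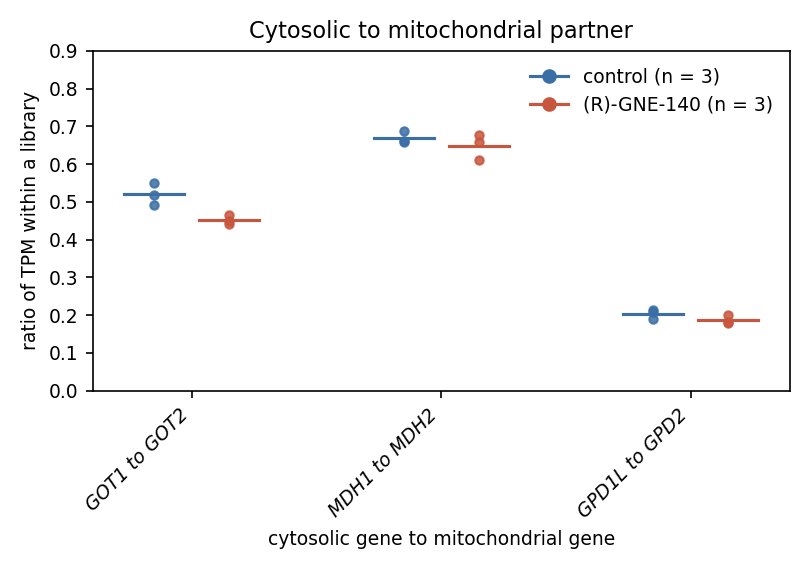
Ratio of the TPM of the cytosolic gene to that of its mitochondrial partner within each library, with 1 point per library and a line at the group mean (3 control and 3 (R)-GNE-140 libraries). In all 3 pairs the cytosolic transcript is the lower one, and the groups are apart only for GOT1 to GOT2.

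The other genes of the shuttles gave 0 calls among 4 tested, and 0 had an unadjusted limma p under 0.05, against 3.03% and 17.9% of all tested rows. The median difference of the 4 was -0.0436 on the log2(TPM + 1) scale. GPD1, the classical cytosolic glycerol phosphate dehydrogenase, was at 1.12 to 1.19 TPM in controls and 0.88 to 1.19 TPM after treatment, and GPD1L was 9.09 to 11.7 times as abundant within a library. The aspartate-glutamate carriers SLC25A12 and SLC25A13 had log2 differences of -0.05 and -0.04, and SLC25A12 was 2.02 to 2.45 times as abundant. The malate carrier SLC25A11, picked with its level already seen, ran from 151.92 to 164.91 TPM in controls and from 157.26 to 163.90 TPM after treatment. LDHB, an enzyme the compound inhibits and picked in the same way, was 1.85 to 1.95 times as abundant as MDH1 within a library.

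Among 19 other genes of NAD synthesis, transport and nicotinamide handling, 18 had a row and 7 were tested. Of the 7, 0 were called and 0 had an unadjusted limma p under 0.05, against 3.03% and 17.9% of all tested rows. The 7 had a median difference of -0.0254. The smallest p-values belonged to PNP, a purine nucleoside phosphorylase that also cleaves nicotinamide riboside, NADSYN1, the NAD synthetase, and AFMID, a formamidase of tryptophan breakdown, with log2 differences of -0.09, -0.15 and 0.07. For NADSYN1 the difference was -0.0764 without control replicate 1 and -0.227 without control replicate 3. The levels differed widely between routes, and the genes named next were chosen after their values were seen. NAPRT, which starts NAD synthesis from nicotinic acid, was at 0.35 to 1.14 TPM, and NAMPT was 36.9 to 124 times as abundant within a library. QPRT, the enzyme by which the tryptophan route joins NAD synthesis, was listed at 0 in all 6 libraries, as was NNMT, which methylates nicotinamide. Of the 3 NMNAT genes, NMNAT1 made up 95.2% to 97.8% of the summed TPM. NADK was 2.09 to 2.34 times as abundant as the mitochondrial kinase NADK2, which was at 22.95 to 25.06 TPM.

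**Figure D5:**
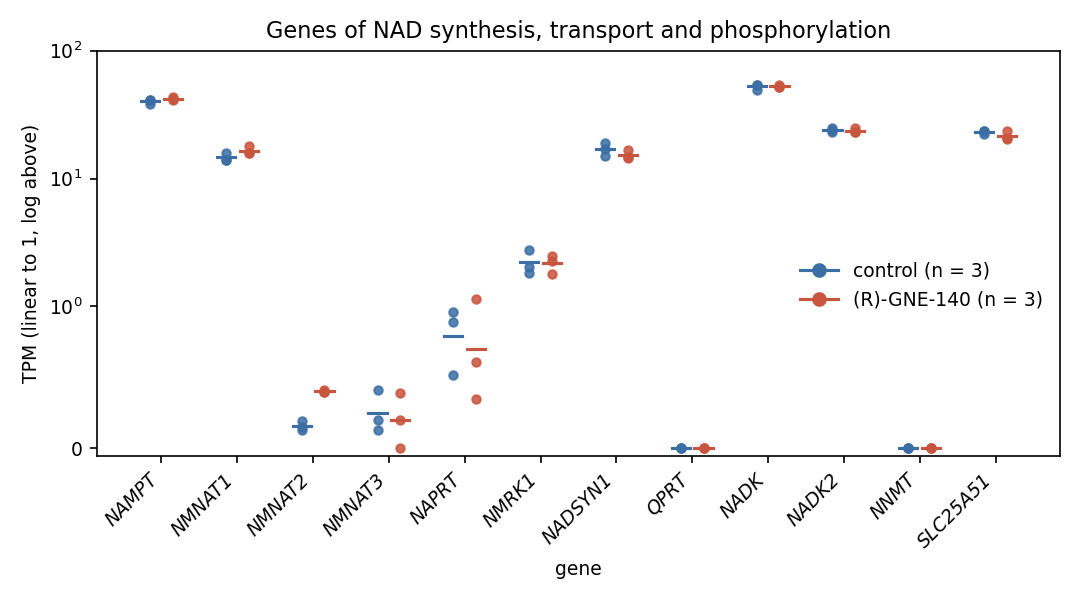
TPM of 12 genes of NAD synthesis, transport and phosphorylation, on an axis that is linear up to 1 and logarithmic above, with 1 point per library and a line at the group mean (3 control and 3 (R)-GNE-140 libraries). NAMPT, NMNAT1, NADSYN1, NADK, NADK2 and SLC25A51 lie above 10 TPM, NMNAT2, NMNAT3 and NAPRT lie near or below 1 TPM, and QPRT and NNMT are listed at 0.

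Enzymes that consume NAD gave 0 calls over 19 tested rows of 18 genes, against 3.03% of all tested rows, with a median difference of -0.0271. At an unadjusted limma p under 0.05, 2 had higher and 1 had lower values, where 8.75% and 9.16% of all tested rows did. CD38, an NAD glycohydrolase of the cell surface, held 11.43, 12.08 and 10.15 TPM in control replicates 1 to 3 against 7.45, 8.44 and 9.08 TPM in treated replicates 1 to 3. The treated values of CD38 all lay below the controls, and the log2 difference of -0.39 did not pass (limma adjusted p = 0.0711). It was the 1 row of the 19 with all treated values below the controls, and 4 rows had all above. The shares over all tested rows were 11.8% and 11.2%. The ADP-ribosyltransferase family member PARP8 and the deacetylase SIRT2 had log2 differences of 0.21 and 0.18 (limma adjusted p = 0.0869 and 0.222).

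Of 21 other tested dehydrogenases, reductases and sensors that use NADH or NADPH, 2 rose and 0 fell, against 1.31% and 1.72% of all tested rows. CYB5R1, an NADH-cytochrome b5 reductase, rose from 34.08, 39.43 and 38.40 TPM to 49.77, 45.09 and 48.17 TPM (log2 0.35, SE 0.07, limma adjusted p = 0.0355). Leaving out a library ended its call in 5 of 6 cases, with log2 differences of 0.285 to 0.388. NQO1, a quinone reductase, rose by 0.35 on the log2 scale (limma adjusted p = 0.00933), while the cytosolic malic enzyme ME1, which makes NADPH from malate, was at 57.78 to 60.79 TPM in controls and 68.06 to 69.73 TPM after treatment and did not pass (limma adjusted p = 0.0508). Before adjustment, 3 of these rows reached a limma p under 0.05 with higher values and 4 with lower values. The shares over all tested rows were 8.75% and 9.16%. The 4 lower ones were IDH2, ME2, IDH1 and CTBP1, with log2 differences of -0.21, -0.19, -0.28 and -0.12. None of the 4 passed (limma adjusted p = 0.0592, 0.123, 0.135 and 0.265). In each, every treated library lay below every control, but they were picked by their p in these same libraries. Of the 21 rows, 4 had all treated values below the controls and 3 had all above. The shares over all tested rows were 11.8% and 11.2%. Over this list the median difference was -0.000853.

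GPD1L had the smallest limma p of the 10 genes, so its profile was compared with those of 10276 other tested rows with a gene symbol. Likeness was the mean absolute distance between log2(TPM + 1) values centred on the control mean, over the 6 libraries. The nearest was FKBP9, a prolyl isomerase of the endoplasmic reticulum, at a distance of 0.0264, with 39.18 to 42.87 TPM in controls and 32.25 to 37.52 TPM after treatment. IDH1, the cytosolic NADP-dependent isocitrate dehydrogenase, followed at 0.0277 and the chromatin reader ZMYND8 at 0.0281. Distances this close to each other do not separate these 3 genes.

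Every treated library had more rows above 0 TPM than every control, 13643 to 13861 against 13379 to 13515, and more rows at 1 TPM or above, 10881 to 10970 against 10755 to 10850. Their read depth is unknown because TPM does not keep it. Of 12 endothelial markers 11 were tested, with CLDN5 and PECAM1 among the higher ones, while VWF was at 0.02 to 0.13 TPM. The summed endothelial marker TPM was 1552 to 1805 in controls and 1405 to 1520 after treatment. In that sum CLDN5 had a mean of 758 TPM in controls and 625 TPM after treatment. The markers ROBO4, FLT1 and EMCN had log2 differences of -0.27, 0.51 and -0.19 with 0 of 11 called, against 3.03% of all tested rows. Of the 11, 8 had negative and 3 had positive differences. At an unadjusted limma p under 0.05, 4 had lower and 1 had higher values, where 9.16% and 8.75% of all tested rows did. ROBO4 (limma adjusted p = 0.0550) was called in 4 of 15 alternatives, where its adjusted p was 0.0241 to 0.0443. The 6 leukocyte markers summed to 2.58 to 3.21 TPM in controls and 2.40 to 3.40 TPM after treatment, with CD3E at 0. CD68, the only one tested, was at 1.69 to 2.14 TPM in controls and 1.31 to 2.28 TPM after treatment. Its log2 difference of -0.16 did not pass (limma adjusted p = 0.703). The 3 epithelial markers with a row summed to at most 0.26 TPM, with CDH1 at 0. The 7 fibroblast and mural markers summed to 5.20 to 6.22 and 6.43 to 9.29 TPM, with RGS5 at 0. The 3 tested, COL1A1, PDGFRA and ACTA2, had log2 differences of 0.50, 0.34 and 0.27, and 0 were called. At an unadjusted limma p under 0.05, 2 of the 3 had higher values, against 8.75% of all tested rows. The part of the row counts and marker differences in the values of the 10 genes was not tested.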

How the data were processed

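Polyadenylated RNA was sequenced from 3 control and 3 (R)-GNE-140 libraries, made with a directional kit per the labels' protocols. The authors deposited TPM values, rounded to 2 decimals and summing to the same total in each library. STAR, RSEM and edgeR 3.42.0 are named in the submitters' processing notes. Neither their order and settings nor the genome build is stated in the labels or the table, and coordinates are therefore left out. TPM keeps no read depth, so no count test, counting interval or depth is given.

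Rows with a mean of at least 1 TPM over the libraries entered a limma fit (version 3.58.1, R 4.3.3) of log2(TPM + 1) on group alone, with trended moderated variances, 2-sided tests and Benjamini-Hochberg adjustment over all tested rows at 0.05. Differences on this scale understate changes of low genes. The steps were tested on simulated data. Symbols matched rows by the table's first column, and identifiers came from the table's own list of identifiers and symbols. In estimates of this kind near-identical copies can share reads.

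The 10 genes and the 8 other lists were chosen with earlier results of these data known. All 10 genes were named, and from each other list every called gene and the 3 with the smallest limma p. Genes named beyond this were chosen after their values were seen. Alternatives changed the pseudocount, filter, scaling or variance trend, added a replicate block, or dropped each library in turn. LDHA, PHGDH, SIRT5, PARP10 and NMRK2 are not analysed here. Figures were drawn with matplotlib 3.10.9.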

Additional observations from a re-analysis of the deposited data

How the results depend on the processing

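The count of 0 called genes among the 10 held in all 15 alternative fits, and GOT1, GPD1L, GPD2, NNT, MDH2, NAMPT and NMNAT1 kept the sign of their difference in each. The lowest limma adjusted p among them was 0.0636, for GPD2. Differences near 0 turned their sign when a library was left out. GOT2 ran from -0.00331 to 0.0473, negative without control replicate 2 (-0.00130), treated replicate 1 (-0.000353) or treated replicate 3. MDH1 ran from -0.0178 (without control replicate 1) to 0.0451. NADK ran from -0.0354 (without control replicate 2) to 0.0299 and was at -0.00993 without treated replicate 1. GPD1 ran from -0.108 to 0.00233 (without treated replicate 2). The cause was not tested. With 1 library left out the log2 difference of GPD1L ran from -0.336 to -0.207, of GOT1 from -0.240 to -0.118, of GPD2 from -0.200 to -0.122 and of NNT from -0.145 to -0.0803. The log2 ratio difference of GOT1 to GOT2 then ran from -0.240 to -0.159 and of GPD1L to GPD2 from -0.171 to -0.0847.

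Over all tested rows 329 genes changed, 168 without the filter, 159 without the variance trend (92 higher and 67 lower, against 142 and 187) and 74 to 185 with 1 library left out. With a replicate block the count was 163. Same-numbered control and treated libraries did not deviate together (correlations of 0.0358, 0.00927 and -0.0977 across genes), so the numbers were not taken to pair the samples. NQO1 kept its call in all 6 fits with a library left out and lost it without the variance trend, and CYB5R1 kept its call in 7 of 15 alternatives. ME1 was called in 4 of 15, with limma adjusted p from 0.0336 to 0.141. Precision is limited by 3 libraries a group and by the unknown depth.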

Other observations

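A pair of genes too low for the test had treated values that all lay above the controls, and both were chosen after their values were seen. NMNAT2, an NMNAT enzyme known from neurons, held 0.13, 0.15 and 0.19 TPM in control replicates 1 to 3 against 0.40, 0.40 and 0.41 TPM in treated replicates 1 to 3. SARM1, an NAD-cleaving enzyme that acts against NMNAT2 in axons, held 0.42, 0.41 and 0.55 TPM in control replicates 1 to 3 against 0.62, 0.64 and 0.62 TPM in treated replicates 1 to 3. Neither reached a mean of 1 TPM, so no test was made. Among tested rows, 11.2% had all treated values above the controls, and the share among rows below 1 TPM was not computed. Other genes of NAD synthesis with a mean below 1 TPM, such as NAPRT, NMNAT3 and KMO, had groups that overlapped. Every treated library also had more rows above 0 TPM than every control, as given above. The second row of MDH2 was listed at 0.25 TPM in (R)-GNE-140 replicate 3.

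Within the controls, replicate 3 held the highest value in 8 of the 10 genes and replicate 2 the lowest in 7, with median log2 deviations over the 10 genes of 0.0486 and -0.0515, against 0.0142 and -0.0247 over all tested rows.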
